A study of Homo sapiens with 10 samples.

Results

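The genes described here encode 5 metallothioneins (MT1E, MT1F, MT1G, MT1X and MT2A) and 4 zinc transporters (SLC30A1, SLC30A5, SLC39A7 and SLC39A14). The members were taken by symbol from a count table of 32738 genes, and all 9 were found and passed the filter on low counts. The counts come from HepG2 cells, a human hepatoma line. Cells were kept in regular growth medium (untreated, 5 libraries) or in medium with 2 µg/ml tunicamycin (5 libraries), both for 17 h, and no genotype or other agent differed between the conditions. Tunicamycin blocks N-linked glycosylation and thereby stresses the endoplasmic reticulum (ER). The series describes the replicates as experiments of separate days but does not tie a library's number to a day, so that a pair below means only an untreated and a tunicamycin library of the same replicate number. The comparison asks how each gene's mRNA level differs after tunicamycin.

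Metallothioneins are small cysteine-rich proteins that bind zinc, copper and other metals in the cytosol, and the liver is one of their main sites of expression. Their genes are switched on by zinc through the transcription factor MTF1, which binds metal response elements (MREs), and also respond to glucocorticoids and oxidants. Proteins of the SLC30 (ZnT) family move zinc out of the cytosol, either out of the cell or into organelles, whereas those of the SLC39 (ZIP) family move it into the cytosol. SLC30A1 is the zinc exporter of the plasma membrane and is itself a target of MTF1. SLC30A5 loads zinc into the early secretory pathway, SLC39A7 releases it from the ER and Golgi, and SLC39A14 takes up zinc, iron and manganese at the hepatocyte surface.

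Windows from the RefSeq promoter table were searched for 5 of the 9 members (MT1X, MT2A, SLC30A1, SLC30A5 and SLC39A7). The 250 bases upstream of the transcription start are shown for 4 of them, which were chosen with their values after tunicamycin known. They differ in elements commonly linked to zinc and to ER stress. A relation between these elements and the values was not tested. Both strands were searched for the MRE core (TGCACNC or TGCGCNC), the unfolded protein response element UPRE (TGACGTGG), the C/EBP-ATF element CARE (TGATGNAA) and the core of the antioxidant response element ARE (TGACNNNGC). Sequences run 5′ to 3′ along the strand of the gene, and capitals mark every match.
MT2A (GRCh38, chr16:56608334-56608583, plus strand): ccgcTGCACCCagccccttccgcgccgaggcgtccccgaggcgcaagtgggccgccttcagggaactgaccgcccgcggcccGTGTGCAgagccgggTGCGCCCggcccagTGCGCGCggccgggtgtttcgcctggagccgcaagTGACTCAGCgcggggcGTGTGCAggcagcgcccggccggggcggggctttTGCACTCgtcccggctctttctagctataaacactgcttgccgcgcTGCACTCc
MT1X (GRCh38, chr16:56682220-56682469, plus strand): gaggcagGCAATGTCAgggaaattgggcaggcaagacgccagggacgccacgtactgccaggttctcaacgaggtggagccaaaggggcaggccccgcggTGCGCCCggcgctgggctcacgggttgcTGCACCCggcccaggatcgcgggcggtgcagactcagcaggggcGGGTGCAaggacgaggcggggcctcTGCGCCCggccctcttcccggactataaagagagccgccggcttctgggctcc
SLC30A1 (GRCh38, chr1:211579162-211579411, minus strand): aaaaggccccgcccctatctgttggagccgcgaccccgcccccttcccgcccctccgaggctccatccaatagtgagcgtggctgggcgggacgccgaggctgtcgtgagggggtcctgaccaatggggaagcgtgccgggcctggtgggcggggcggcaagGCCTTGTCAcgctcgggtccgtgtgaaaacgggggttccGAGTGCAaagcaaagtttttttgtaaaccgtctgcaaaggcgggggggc
SLC30A5 (GRCh38, chr5:69093764-69094013, plus strand): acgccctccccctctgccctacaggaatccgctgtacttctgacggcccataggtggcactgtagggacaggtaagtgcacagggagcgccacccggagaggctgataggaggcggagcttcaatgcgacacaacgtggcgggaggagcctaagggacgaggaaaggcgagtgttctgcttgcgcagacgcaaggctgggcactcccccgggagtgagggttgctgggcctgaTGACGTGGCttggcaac
The MT2A window held 7 MRE cores and the MT1X window 4. Over the 35116 promoters of the table, 24.8% held at least 1 core within the same distance and 0.37% held 4 or more. The SLC30A1 window held 1 core, between 49 and 43 bases before the start. The SLC30A5 window held no MRE core but 1 UPRE, from 17 to 10 bases before the start, an element found in 0.612% of all promoters. The same bases also match the ARE core, which occurs in 10.9% of promoters and was present once in each of the 5 windows. None of the 5 windows matched CARE, which 3.14% of all promoters hold, and the SLC39A7 window held only the ARE core. RefSeq starts SLC30A5 and SLC39A7 downstream of the GENCODE starts at 69093991 and 33200305, so that the UPRE of SLC30A5 and the whole SLC39A7 window lie inside the genes as GENCODE draws them. MT1E, MT1F, MT1G and SLC39A14 were not searched. A match of letters is a description and not evidence of binding.

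The 5 metallothionein genes lie together on chromosome 16 of GRCh38, from 56608584 to 56684196. SLC30A1 lies on chromosome 1 (211571568 to 211579161, minus strand), SLC30A5 on chromosome 5 (69093991 to 69131069, plus strand) and SLC39A7 on chromosome 6 (33200305 to 33204439, plus strand). The metallothionein mRNAs resemble each other, and the libraries sample only 3′ ends. Within the last 300 bases of the transcripts, the share of 50-base windows that also occur in a transcript of another gene was 1.99% for MT1E, 9.16% for MT1F, 15.5% for MT2A, 28.7% for MT1G and 30.7% for MT1X, and 0 for the 4 transporters. Reads from these windows cannot be told apart, so counts of MT1G and MT1X are the least certain. Exons of an unnamed gene (ENSG00000259827) overlap those of MT1X on the same strand, and exons of ENSG00000248664 and RXRB overlap those of SLC30A5 and SLC39A7 on the opposite strand.

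The libraries held 2234682 to 5029864 counts, with the smallest total in tunicamycin replicate 5. All 8 hepatoma markers examined were present in every library, ALB and AFP among them, although 5 of the 8 (APOA1, APOB, TTR, FGB and TF) were lower with tunicamycin. The stress response was visible in the 7 tested genes of 8 listed ER stress genes, which were all higher with tunicamycin in edgeR's quasi-likelihood test. Fibroblast markers stayed at or below 5 counts in every library. Of the 5 endothelial markers 4 were found in the table, and of these CDH5 had 18 counts in tunicamycin replicate 4 and 0 elsewhere. Of the 6 immune markers, LYZ was abundant in all libraries (1009 to 1800 counts) and CD68 was present at 5 to 41 counts, while PTPRC and CD3E were at 0 and CD14 and CD79A at or below 4. CD68 was lower with tunicamycin (adjusted p = 0.0319, edgeR). LYZ was higher in 5 of 5 pairs, by 0.33 on the log2 scale, and was not called by edgeR (adjusted p = 0.0524) but was called by DESeq2 (adjusted p = 0.0483). The part of any other cell type in the results was not tested. In cultures, fewer expressing cells and less RNA per cell cannot be told apart. Among all 12733 genes tested, 34.2% differed between the conditions, 17.6% being higher and 16.6% lower with tunicamycin. Of the called genes 51.4% were higher under TMM, a share that dropped to 40.8% when libraries were scaled by their totals alone.

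Of the 9 members, 4 fell and 2 rose after tunicamycin (adjusted p below 0.05 in edgeR), against the background of 34.2% of all genes. MT2A, MT1E, MT1G and MT1F fell by more than 2-fold, whereas MT1X, SLC30A1 and SLC39A7 were not called. SLC39A14 and SLC30A5 rose. These 6 calls were made in every alternative fit and with any single library left out.

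MT2A, the most abundant metallothionein of these cells, stood at 1538, 1306, 1612, 1467 and 1581 normalized counts in replicates 1 to 5 without tunicamycin. The corresponding treated libraries held 541, 496, 535, 712 and 533. Normalized counts are counts per TMM-scaled library, brought to the average scaled library. Every tunicamycin library lay below every untreated one, and replicate 4 was the highest of the treated group. The mean went from 1501 ± 121 to 563 ± 84.8 (SD, n = 5 each), which is 2.67-fold lower. On the log2 scale the difference was -1.42, with a standard error of 0.10 (adjusted p = 3.95e-09, edgeR's quasi-likelihood test). Of all genes tested, 1.88% had a lower log2 fold change.

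MT1F was the most even of the metallothioneins. Its untreated libraries held 443, 414, 379, 387 and 422 normalized counts, and its tunicamycin libraries 163, 167, 167, 158 and 167. The groups were thus well separated, with a spread of 2.46% (SD relative to the mean) among treated libraries. These libraries held 193, 168, 177, 115 and 83 counts of MT1F. Counting error alone would give a larger spread at such counts, so the evenness is not a measure of precision. The log2 fold change was -1.31 (standard error 0.09, adjusted p = 1.96e-09, edgeR).

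MT1E varied more among the libraries of one condition. Without tunicamycin, replicates 1 to 5 held 652, 672, 833, 977 and 880 normalized counts, and with it 325, 252.05, 283, 430 and 353. The highest treated library still lay below the lowest untreated one, and MT1E fell by 1.30 on the log2 scale (standard error 0.14, adjusted p = 6.74e-07, edgeR). For MT1G, which is transcribed in the opposite direction to the other 4 genes, the values were 572, 624, 521, 615 and 560 in untreated cells and 204, 208, 251, 343 and 270 after tunicamycin. Its groups did not overlap either, and the log2 fold change was -1.19 (standard error 0.12, adjusted p = 4.61e-07, edgeR). Each of these 4 genes was lower in 5 of 5 pairs, with pair log2 ratios between -1.59 and -0.84. An exact permutation test over the libraries gave each a two-sided p of 0.00794, the smallest that 5 against 5 allow. The pair counts and this p both follow from groups that do not overlap, and they add no separate support. The share of all genes that separate in this way is not given here.

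**Figure D1:**
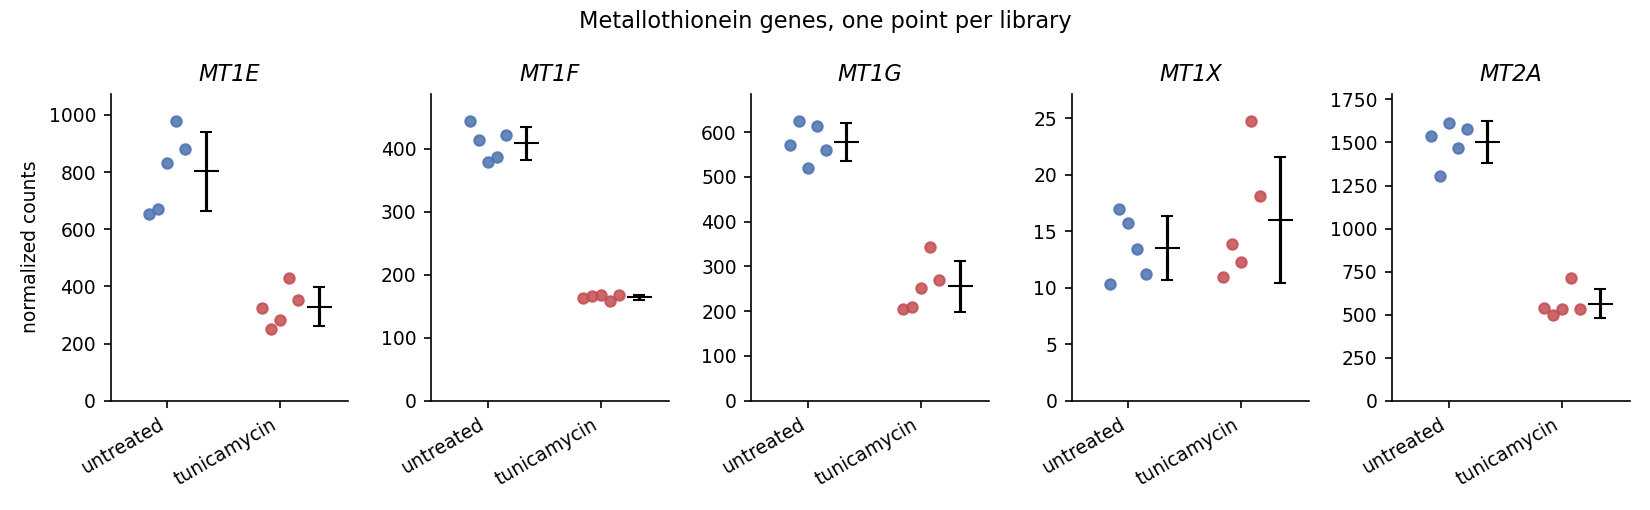
Normalized counts (vertical axis, linear, from 0) of the 5 metallothionein genes in untreated (blue) and tunicamycin-treated (red) HepG2 cells. Each point is a library, in order of replicate number from left to right, and the black mark gives the mean and SD of 5 libraries; the groups are separated for MT1E, MT1F, MT1G and MT2A and overlap for MT1X.

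MT1X stood at a far lower level than the other 4 genes and did not show their decrease. It had 10.3, 16.9, 15.7, 13.4 and 11.2 normalized counts in untreated libraries and 11, 13.9, 12.3, 24.7 and 18.2 with tunicamycin, from 75 and 67 counts in all. The groups overlapped, with the highest value in tunicamycin replicate 4. The log2 fold change was 0.18 with a 95% interval from -0.45 to 0.82 (adjusted p = 0.676, edgeR), and without tunicamycin replicate 4 it was -0.019. The interval did not reach the values of the other metallothioneins, of which MT1G had the smallest decrease, although the difference between the genes was not itself tested. This gene is also the one with the largest share of 3′ sequence in common with other genes.

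Summed over the 5 genes, metallothioneins took 736, 695, 769, 792 and 791 CPM (counts scaled to a common library size by TMM) in untreated replicates 1 to 5. With tunicamycin the sums were 285, 260, 286, 382 and 307. The untreated mean was 2.49 times the treated mean, and no treated library reached the lowest untreated one. The make-up of the sum shifted little for the abundant genes. MT2A gave 42.4% to 48.0% of the sum in untreated libraries and 39.7% to 43.6% in treated ones, and the ranges of MT1E, MT1F and MT1G overlapped between the conditions as well. Only the share of MT1X separated the conditions, at 0.321% to 0.558% without and 0.883% to 1.48% with tunicamycin, although MT1X itself was not called. This share rises when the other genes of the sum fall, so it is not a separate result. It also rests on only 9 to 19 counts of MT1X in a library.

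**Figure D2:**
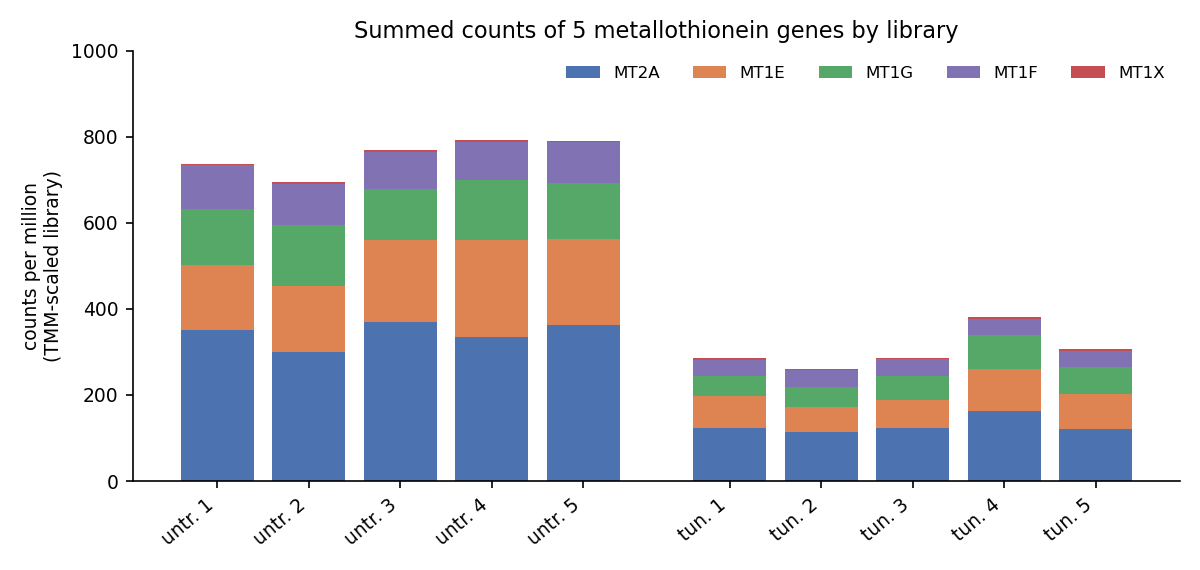
CPM on TMM-scaled libraries (vertical axis) summed over MT2A, MT1E, MT1G, MT1F and MT1X in each of the 10 libraries, with colours for the genes (untr., untreated; tun., tunicamycin; numbers are replicates). The 5 untreated libraries reach 695 to 792 and the 5 tunicamycin libraries 260 to 382, with MT2A as the largest part of each bar.

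Among the transporters that carry zinc out of the cytosol, SLC30A5 rose and SLC30A1 was not called. SLC30A5 had 68.0, 59.7, 69.1, 77.9 and 59.0 normalized counts in untreated libraries and 81.1, 129, 96.4, 126 and 157 after tunicamycin. The lowest treated library was only slightly above the highest untreated one, so that the increase was clear in direction but uneven in size, with pair log2 ratios from 0.25 to 1.41. The log2 fold change was 0.79 (standard error 0.17, adjusted p = 0.00114, edgeR). The exact permutation p was 0.00794, which follows from groups that do not overlap.

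SLC30A1 had 178, 173, 261, 275 and 262 normalized counts without tunicamycin. With tunicamycin the values were 196, 229, 295, 258 and 289, which overlap the untreated range. Replicates 1 and 2 were lower than the other 3 within each condition. The log2 fold change of 0.13 had a 95% interval from -0.17 to 0.44 (adjusted p = 0.515, edgeR), and the gene was higher in 4 of 5 pairs. SLC30A1 gave no called decrease, and its interval lay above the values of MT2A, MT1E, MT1F and MT1G. Neither the difference between the genes nor the activity of MTF1 was tested.

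Of the transporters that bring zinc into the cytosol, SLC39A14 rose strongly and SLC39A7 was not called. For SLC39A14, the untreated libraries held 708, 707, 1061, 1226 and 993 normalized counts, and the tunicamycin libraries 1791, 2483, 2263, 2969 and 2567. All treated libraries exceeded all untreated ones, and the pair log2 ratios ranged from 1.09 to 1.81. Means were 939 ± 227 and 2414 ± 432 (SD, n = 5 each), and the log2 fold change was 1.36 (standard error 0.15, adjusted p = 1.16e-06, edgeR), above that of 97.0% of all genes tested. The gene, which has 9 exons in its main transcript, spans 22367278 to 22434129 of chromosome 8 on the plus strand of GRCh38, with no exon of another gene over its own. SLC39A14 took 0.220 to 0.354 times the summed metallothionein counts in untreated libraries and 1.44 to 2.18 times that sum in treated ones. This shift follows from the rise of SLC39A14 and the fall of the metallothioneins and is not a separate result. The size of the ratio is uncertain, because the metallothioneins share 3′ sequence with other genes.

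SLC39A7 had 378, 382, 424, 349 and 359 normalized counts in untreated libraries and 427, 425, 409, 448 and 361 with tunicamycin. These ranges overlap, and the log2 fold change was 0.13 with a 95% interval from -0.05 to 0.32 (adjusted p = 0.268, edgeR). A change as large as that of SLC30A5 therefore lay outside the interval for this transporter of the ER and Golgi membrane.

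**Figure D3:**
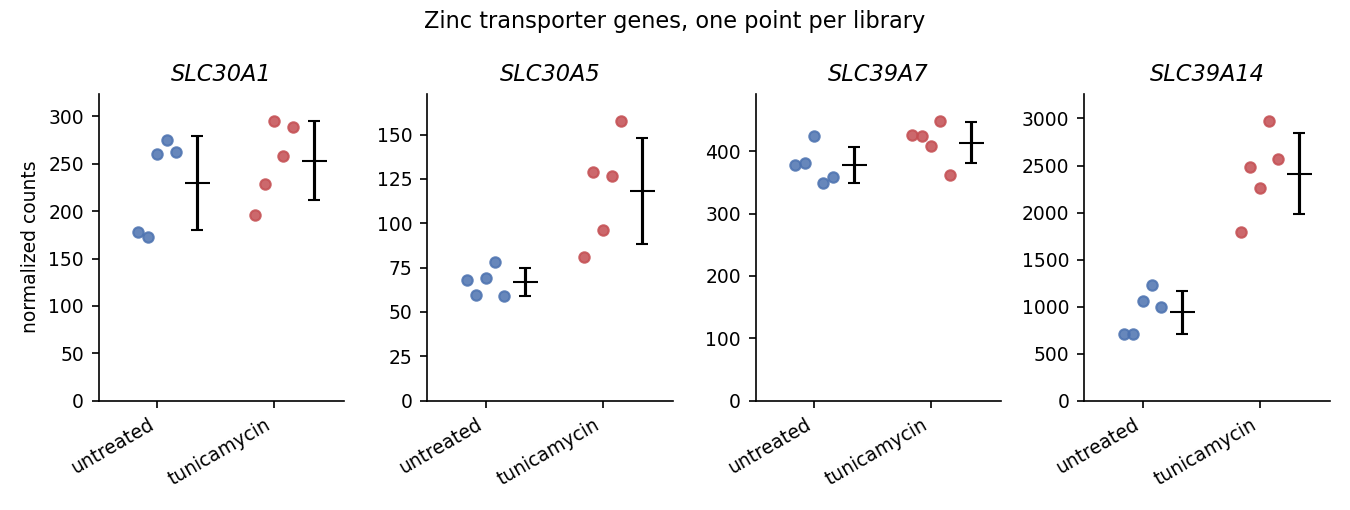
Normalized counts (vertical axis, linear, from 0) of the 4 zinc transporter genes in untreated (blue) and tunicamycin-treated (red) libraries, drawn in order of replicate number, with the mean and SD of 5 libraries in black. SLC39A14 and SLC30A5 are higher in every treated library, while SLC30A1 and SLC39A7 overlap between the conditions.

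**Figure D4:**
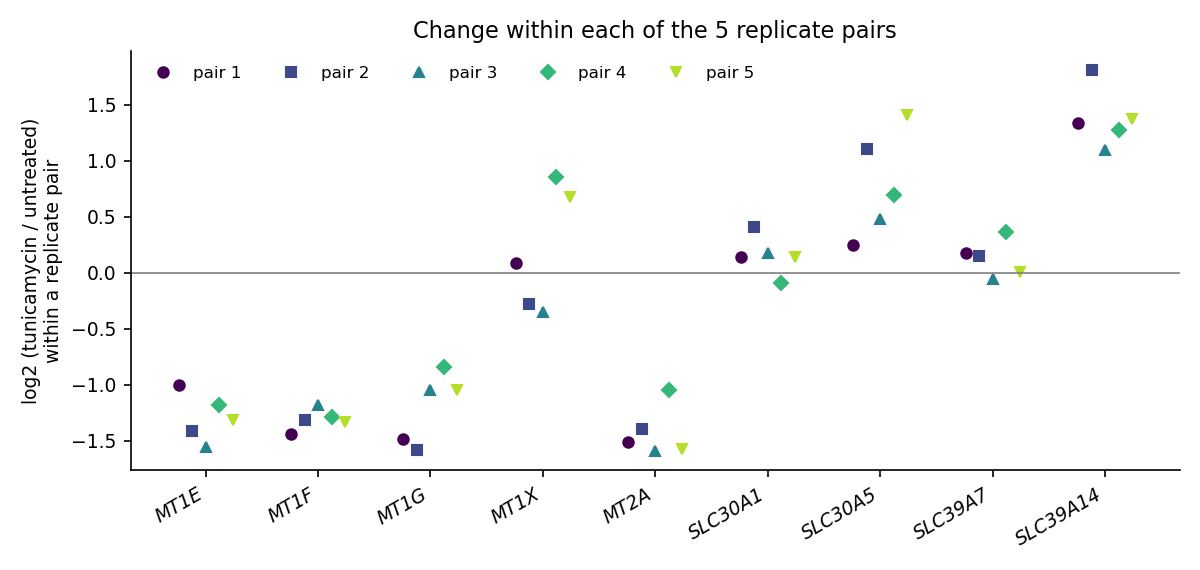
Log2 ratio of tunicamycin to untreated normalized counts within each of the 5 replicate pairs (vertical axis, pseudocount 0.5), with a symbol for each pair. All 5 pairs lie below 0 for MT1E, MT1F, MT1G and MT2A and above 0 for SLC30A5 and SLC39A14, while the pairs of MT1X, SLC30A1 and SLC39A7 fall on both sides.

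Because 3′ sequencing gives about 1 fragment per transcript whatever its length, normalized counts of different genes can be set side by side. The metallothionein levels carry a further uncertainty, because part of their 3′ sequence is shared with other genes. The treatment of such reads is not given in the sources used here. The levels of MT1X, SLC30A5 and SLC39A7 are also uncertain where exons of other genes overlap theirs, because the strand setting is not given either. In untreated cells MT2A stood first, followed by SLC39A14 and MT1E, whose ranges overlapped, then MT1G, then MT1F and SLC39A7, which also overlapped, then SLC30A1, SLC30A5 and MT1X. With tunicamycin SLC39A14 stood first and MT2A second, without overlap. SLC39A7, MT1E, MT1G and SLC30A1 followed, each overlapping with the next in order, and MT1F, SLC30A5 and MT1X came last, each apart from its neighbours.

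Other genes of these families were examined next. Of the 16 other metallothionein genes and pseudogenes listed, 7 were found in the table, and none of these passed the filter on low counts with all libraries included. MT1A, MT3 and MT4 were at 0 in each of the 10 libraries (a count of 0 is compatible with up to 3, counting error only), and MT1B, MT1H, MT1M and MT1HL1 reached at most 5. MT1H, with 13 counts in all untreated and 2 in all tunicamycin libraries, passed the filter in some fits without a single library and was called lower without tunicamycin replicate 1 (adjusted p = 0.0382, edgeR), the only treated library with counts of this gene. Of the 24 SLC30 and SLC39 genes, 18 were tested and 7 of these (38.9%) were called, close to the 34.2% of all genes; without the members it was 5 of 14 (35.7%). The median log2 fold change of the 14 was 0.05, against -0.00 over all genes.

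Among the exporters, SLC30A7, which like SLC30A5 supplies the early secretory pathway, rose, with means of 268 ± 7.05 untreated and 416 ± 30.6 treated (normalized counts, SD, n = 5 each) and a difference of 0.63 on the log2 scale (adjusted p = 1.4e-05, edgeR). SLC30A6, the partner with which SLC30A5 forms its transporter, was higher in 5 of 5 pairs but was not called (log2 fold change 0.27, adjusted p = 0.101, edgeR). SLC30A3, known from synaptic vesicles, fell from 115 ± 8.28 to 56.2 ± 9.86 (log2 fold change -1.02, adjusted p = 1.57e-05, edgeR). SLC30A10, which exports manganese, had a log2 fold change of -0.58 (adjusted p = 0.0281, edgeR) but was lower in only 4 of 5 pairs and lost its call in 7 of 19 alternative fits, among them those without untreated replicate 3, 4 or 5 or tunicamycin replicate 3 or 4 (adjusted p up to 0.0898). SLC30A9 was not called (0.09), and SLC30A2, SLC30A4 and SLC30A8 had at most 2 counts in a library.

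Of the other importers, SLC39A4 (log2 fold change -0.40, adjusted p = 0.00598, edgeR) and SLC39A1 (-0.36, adjusted p = 0.00435) fell, each in 5 of 5 pairs. SLC39A4 is best known from zinc uptake in the gut, and SLC39A1 is a widely expressed plasma membrane importer. SLC39A6 was higher in 5 of 5 pairs and missed the threshold (0.24, adjusted p = 0.0509, edgeR), and was called in 8 of 19 alternative fits (adjusted p from 0.0290 to 0.260). SLC39A3 (-0.20), SLC39A5 (0.28), SLC39A9 (0.02), SLC39A10 (-0.21), SLC39A11 (0.09) and SLC39A13 (0.17) were not called. SLC39A2 and SLC39A12 had 0 counts throughout, and SLC39A8, the closest relative of SLC39A14, had 5 counts in tunicamycin replicate 5 and at most 1 in any other library.

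**Figure D5:**
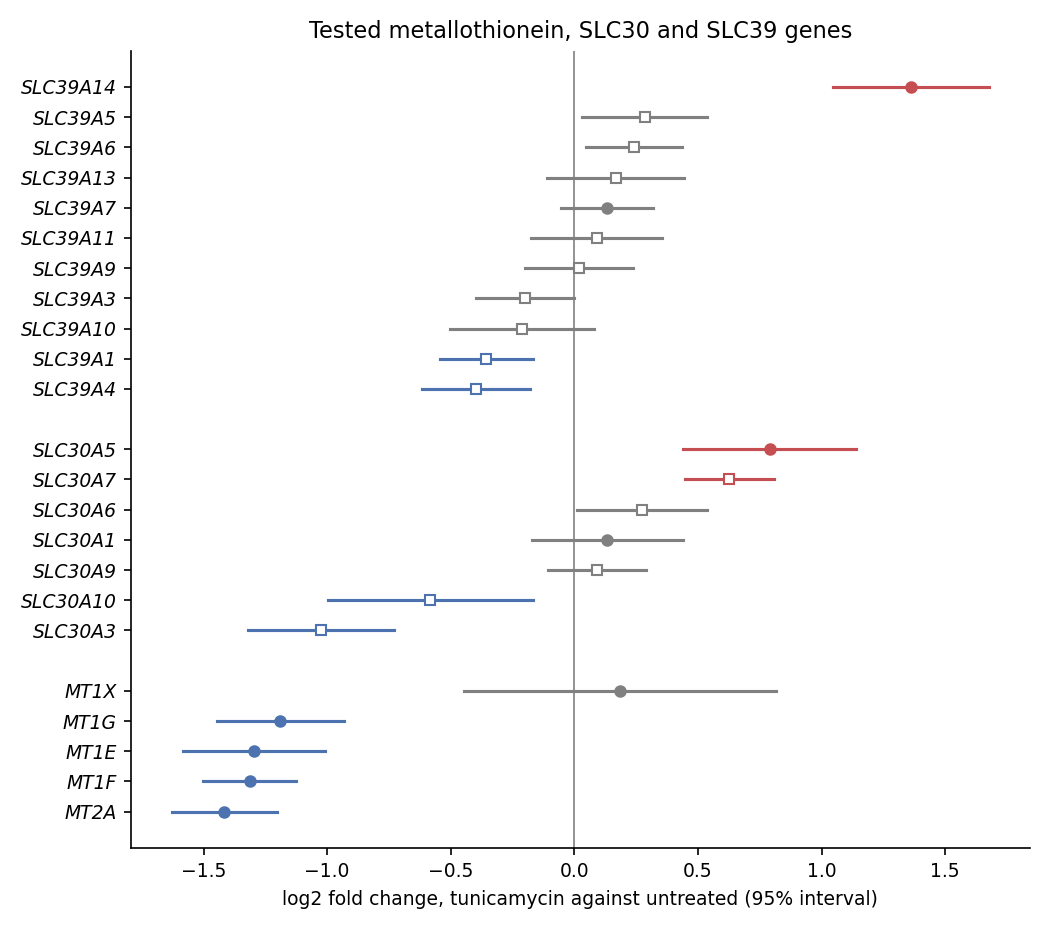
Log2 fold change of tunicamycin against untreated (horizontal axis) with its 95% interval for every tested gene of the metallothionein, SLC30 and SLC39 families; filled circles are the 9 members, open squares the other genes, red and blue are called higher and lower, and grey is not called. The 4 abundant metallothioneins form the lowest group, between -1.42 and -1.19, and SLC39A14 stands highest at 1.36.

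Genes around the zinc system were examined as fixed lists. MTF1, the sensor that activates metallothionein genes, had 92.2 ± 3.91 normalized counts without and 93.5 ± 7.0 with tunicamycin (SD, n = 5 each), and its log2 fold change of 0.01 had a 95% interval from -0.24 to 0.26 (adjusted p = 0.947, edgeR). ERP44, a chaperone of the early secretory pathway whose client binding is set by zinc, rose (244 ± 74.7 against 931 ± 154 normalized counts), by 1.93 on the log2 scale with a standard error of 0.17 (adjusted p = 8.71e-08, edgeR). The alkaline phosphatases ALPL, ALPP and ALPPL2, which receive zinc through SLC30A5 and SLC30A7, had 0 counts in all libraries, ALPI had 1 count in 1 library, and the zinc transporter TMEM163 had at most 1.

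Copper, the other metal that metallothioneins bind, gave 1 higher and 1 lower gene among 12 tested, beside 34.2% over all genes. The copper importer SLC31A1 rose (log2 fold change 0.75, adjusted p = 9.61e-07, edgeR), and the copper chaperone ATOX1 fell (-0.70, adjusted p = 0.000265). Of the 7 glucocorticoid-responsive genes listed, 5 were tested and none was called by edgeR or DESeq2. Their log2 fold changes were all positive, from 0.07 for FKBP5 to 0.83 for DUSP1, with a median of 0.60. Of these genes 1, DUSP1, had an unadjusted p under 0.05 in edgeR. Counts were low, FKBP5 being the most abundant at 64.2 ± 9.19 normalized counts in untreated cells (SD, n = 5).

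Genes with a pattern over the 10 libraries close to that of 3 members were found by the root mean square difference of centred log2 values, over 9699 genes whose mean was 20 normalized counts or more. For MT2A they included FDFT1 (squalene synthase, 0.094) and FANCA (a Fanconi anaemia protein, 0.120), both closer than MT1F (0.188), MT1E (0.189) and MT1G (0.208). For SLC39A14 they included LOX (lysyl oxidase, 0.103) and MTX2 (a mitochondrial import protein, 0.140), and for SLC30A1 they were TBC1D7 (0.085), MED9 (0.101) and STK17B (0.118). The log2 fold changes were -1.35 for FDFT1 and -1.38 for FANCA, and 1.37 for LOX and 1.27 for MTX2. Each was called in the direction of its member, and the 3 neighbours of SLC30A1 were not called. The match ran over the libraries of both conditions. A fold change and call like those of the member therefore follow largely from the choice and are not a separate result.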

How the data were processed

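HepG2 RNA was made into QuantSeq 3′ libraries. According to the methods of the study, the authors mapped reads to hg19 with Ensembl transcript definitions in the nf-core RNA-Seq pipeline with its default settings, and they deposited raw counts per gene without normalization; the sources used here do not name the aligner, counter and strand setting behind these defaults. All sample columns were used.

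Genes were filtered with filterByExpr (minimum count 2, minimum total 10), scaled by TMM and tested with edgeR 4.0.16 (R 4.3.3), quasi-likelihood, condition as the only term. P-values were adjusted over all 12733 genes by the Benjamini-Hochberg method, with 0.05 as threshold. The standard error is the absolute log2 fold change divided by the square root of F.

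Alternatives were DESeq2 1.42.0, DESeq2's size factors, library size only, no filter, default minimums, edgeR and DESeq2 fits with a replicate block, thinning to 2234682 counts, removal of mitochondrial genes and leaving out each library. The members and lists were chosen with earlier results of these data known. Named genes are the members, their families, the listed zinc genes, called or exemplary genes of the copper, ER stress and glucocorticoid lists, and the 3 genes nearest to MT2A, SLC30A1 and SLC39A14, of which some are not reported here. Positions come from GENCODE on GRCh38, matched by Ensembl identifier, and promoters from RefSeq (GRCh38.p14). Sequences were printed for 4 of the 5 members searched there. Library totals of 2234682 to 5029864 limit the precision for scarce transcripts.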

Additional observations from a re-analysis of the deposited data

Results flagged for a closer look

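Among 56 sets of 5 libraries (most of them a gene in a condition), 4 had a library far from the rest by Dixon's test, where chance gives about 2.8. MT2A had 712 normalized counts in tunicamycin replicate 4, against 496 to 541 in the others, and without that library its log2 fold change stayed called. SLC30A3 had 73.7 in tunicamycin replicate 3, against 49.8 to 52.6. SLC30A6 had 89.2 in untreated replicate 2, against 129 to 134. SLC30A7 had 468 in tunicamycin replicate 5, against 393 to 414. Tunicamycin replicate 4 also had the largest share of counts on mitochondrial genes, 28.8%, and the 18 counts of CDH5; their part in the MT2A value was not tested.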

How the results depend on the processing

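Over 9 alternative fits and 10 fits without a single library, the 6 calls among the members and their directions were kept. The log2 fold changes ranged from -1.51 to -1.36 for MT2A, from -1.39 to -1.26 for MT1F, from -1.41 to -1.20 for MT1E, from -1.31 to -1.11 for MT1G, from 0.68 to 0.91 for SLC30A5 and from 1.27 to 1.49 for SLC39A14, with adjusted p-values of at most 0.0142. The 3 members without a call stayed so; MT1X ranged from -0.019 to 0.31 with a single library left out, and turned sign in 1 of 19 fits, that without tunicamycin replicate 4. With library size only, SLC39A9 was at -0.066 and MTF1 at -0.071, and after thinning SLC39A9 was at -0.20, SLC39A11 at -0.046 and MTF1 at -0.092, all uncalled. With a single library left out, SLC39A9 ranged from -0.032 to 0.052 and MTF1 from -0.010 to 0.049. The replicate block in edgeR gave 4811 differing genes against 4353, and of the genes of these families it changed the call of SLC39A6 only (adjusted p = 0.0386), whereas DESeq2 with the block did not call SLC39A6 (adjusted p = 0.0853) and lost SLC30A10 (adjusted p = 0.0692). Whether the numbers pair the libraries was not settled. Deviations of same-numbered libraries from the condition means were correlated over 9707 genes. The values were 0.36, 0.0197, 0.0764, 0.162 and 0.137 for replicates 1 to 5, all positive. Untreated replicates 1, 3 and 4 correlated best with the tunicamycin library of their own number, and replicates 2 and 5 with one of another number. The edgeR block lowered the standard error of MT1E (0.137 to 0.090), SLC30A1 (0.146 to 0.099) and SLC39A14 (0.151 to 0.093). It raised that of MT1F (0.089 to 0.094) and MT1X (0.302 to 0.325). Library size alone shifted the median of all genes to -0.08 and called SLC39A3 (adjusted p = 0.0422). MT1H was called without tunicamycin replicate 1 only (adjusted p = 0.0382). SLC39A6 was called in 8 fits and SLC39A5 in 2, those without untreated replicate 1 or tunicamycin replicate 4. The causes were not tested. SLC30A10 lost its call in 7 fits, with an adjusted p of up to 0.0898. The ratio of summed metallothioneins, 2.49, ranged from 2.40 to 2.66. Genes with few counts, MT1X among them, are limited by depth.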
